A study of Rattus norvegicus with 2 samples.

Results

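Proximal tubule metabolic enzymes were followed here in rat urine through 9 genes, 8 enzymes (Pck1, Fbp1, Khk, Miox, Gatm, Hao2, Ass1 and Ggt1) and 1 transcription factor, Hnf4a. They were chosen by symbol from the features that carry a number-only gene ID, and all 9 were found among 16484 such genes, of 113011 features in all. RNA-seq was performed on urine from Sprague Dawley rats in 2 libraries. The WT library came from rats that had the same surgery without closure of a ureter (sham), and the UUO library from rats whose right ureter had been tied off (unilateral ureteral obstruction, a surgical model of kidney scarring). The rats were 8 weeks old per the study's methods, postnatal day 56 per the labels, and 2 weeks passed after surgery. No genotype or agent other than the surgery is given. Per the study's methods the urine was drawn from the ureter by catheter, so it came from the operated side and had not passed the bladder. How many rats gave urine to each library is not stated.

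The proximal tubule reabsorbs most of what the glomerulus filters and carries out much of the metabolism of the kidney. It makes glucose from lactate and amino acids, burns fructose, breaks down inositol, makes arginine and the precursor of creatine, and takes apart glutathione at its brush border. Hnf4a encodes a nuclear receptor that switches on many genes of the mature proximal tubule and of the liver. Damaged tubule cells are known to lose much of this enzyme set.

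Each group had a single library. No test between WT and UUO could therefore be made, and every value describes these 2 libraries without a replicate check. Levels are FPKM, fragments per kilobase of a transcript, scaled to how many fragments the library held. Differences are UUO minus WT on the log2(FPKM + 1) scale. A gene with an FPKM of 1 or more in a library was taken as detected there. It was counted as higher or lower at a difference of 1 or more, that is 2-fold. The deposited columns are named UrRf and Urc, which were read as UUO and WT. All directions would turn if these names were exchanged.

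All 9 genes were detected in both urines, and all 9 were lower in UUO urine as deposited. They spanned FPKM of 61.2 to 1006 in WT urine and of 24.3 to 428 in UUO urine. By the 2-fold limit 8 of the 9 were lower and 0 were higher. Of all 9853 genes detected in either library, 36.5% were lower and 25.7% higher by the same limit. The median difference of the members was -1.67, beside -0.51 over all counted genes. Abundant genes were lower more often, and among the 1235 genes with a mean FPKM at or above that of Ggt1, the lowest member, 58.7% were lower and 6.72% higher, with a median of -1.26. Among the 7218 genes detected in both urines the shares were 42.8% and 7.01%. In bulk urine RNA, fewer proximal tubule cells or cell fragments and less RNA of these genes per cell cannot be told apart.

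**Figure D1:**
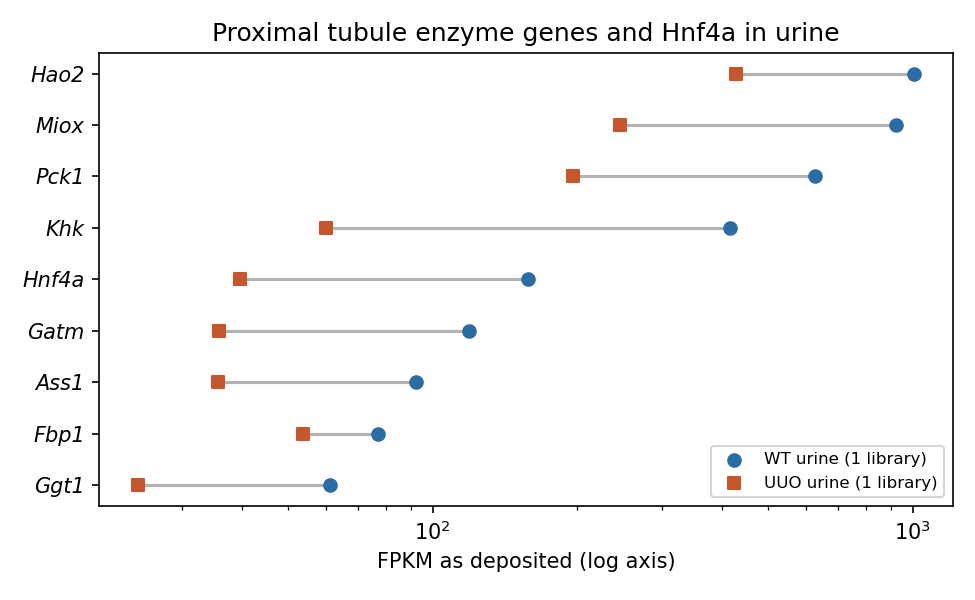
FPKM as deposited, on a log axis, of the 9 genes in WT urine (circles) and UUO urine (squares), 1 library each, ordered by the WT value. The UUO value lies to the left of the WT value for every gene, with the widest gap for Khk (416 against 59.9) and the narrowest for Fbp1 (76.9 against 53.6).

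Promoter sequences are shown for the 4 genes whose window held the TATA box letters TATAAA or the letters CAGACA. The study searched for CAGACA as a site of Smad3, a factor of the TGF-beta pathway. Its search covered longer stretches, before long noncoding RNA genes that were higher in UUO, so the searches are not alike. All 9 genes had an entry in the RefSeq table of the GRCr8 assembly, with 10 windows in all, since Hnf4a has 2 listed starts. In the 250 bases before the start, capitals mark TATAAA or its reverse complement TTTATA, and CAGACA or its reverse complement TGTCTG.
Miox (GRCr8, chr7:122284410-122284659, plus strand): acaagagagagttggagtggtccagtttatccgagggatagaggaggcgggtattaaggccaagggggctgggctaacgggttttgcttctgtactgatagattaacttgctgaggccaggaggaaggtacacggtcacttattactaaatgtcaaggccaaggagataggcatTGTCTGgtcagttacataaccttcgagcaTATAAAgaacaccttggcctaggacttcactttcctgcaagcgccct
Ass1 (GRCr8, chr3:35149480-35149729, plus strand): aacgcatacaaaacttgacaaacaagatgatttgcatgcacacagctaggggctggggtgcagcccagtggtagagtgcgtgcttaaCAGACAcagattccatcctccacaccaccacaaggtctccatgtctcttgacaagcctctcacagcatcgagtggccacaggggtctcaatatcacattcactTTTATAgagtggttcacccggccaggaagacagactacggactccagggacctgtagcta
Hao2 (GRCr8, chr2:188913134-188913383, minus strand): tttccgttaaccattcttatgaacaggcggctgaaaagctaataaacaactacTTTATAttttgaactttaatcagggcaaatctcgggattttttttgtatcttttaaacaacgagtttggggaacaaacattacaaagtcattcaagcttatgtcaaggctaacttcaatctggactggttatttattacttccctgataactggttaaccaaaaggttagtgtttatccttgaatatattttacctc
Ggt1 (GRCr8, chr20:13095105-13095354, minus strand): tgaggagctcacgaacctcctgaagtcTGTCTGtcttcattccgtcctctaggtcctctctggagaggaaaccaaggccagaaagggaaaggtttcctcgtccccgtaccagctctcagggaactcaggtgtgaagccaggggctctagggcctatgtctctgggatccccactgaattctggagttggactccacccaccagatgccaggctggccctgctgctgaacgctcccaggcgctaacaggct

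In Miox, TATAAA began 47 bases before the start, and TGTCTG 76 bases before it. In Ass1 the reverse complement TTTATA began 60 bases before the start and CAGACA 163 bases before it. The match to TATAAA in Hao2 lay farther out, 197 bases before the start, and the match to CAGACA in Ggt1 at 223 bases. On both strands TATAAA was found in 3 of the 10 windows (Ass1, Hao2 and Miox) and in 12.9% of all 33469 promoter windows of the same length. CAGACA was found in 3 of the 10 windows (Ass1, Ggt1 and Miox) and in 17.2% of all. The HNF4 motif CAAAGTCCA was found in 0 of the 10 windows and in 0.338% of all, and the CCAAT box in 4 windows of 3 genes (Fbp1, Gatm and both Hnf4a starts) and in 34.0% of all. In the 4 windows shown, no match of 1 motif shared bases with a match of another, and a match is only a stretch of letters.

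Glucose and fructose metabolism was represented by 3 genes. Pck1 (ID 362282, chromosome 3, 177278782 to 177284732) encodes the cytosolic phosphoenolpyruvate carboxykinase, which commits carbon to glucose synthesis. Its level was 627 FPKM in WT urine and 196 FPKM in UUO urine, a difference of -1.67 and a ratio of 3.20. Fbp1 (ID 24362, chromosome 17, 391320 to 412432) encodes fructose bisphosphatase, a later and irreversible step of the same pathway. In WT urine its FPKM was 76.9 and in UUO urine 53.6, a difference of -0.51, and it was the only member within 2-fold. Khk (ID 25659, chromosome 6, 36626191 to 36636628) encodes ketohexokinase, which phosphorylates fructose on its entry into metabolism. Its FPKM was 416 in WT urine against 59.9 in UUO urine, a difference of -2.77, the widest of the 9 and a ratio of 6.94. The 2 gluconeogenic enzymes therefore stood in another proportion in the urines, Pck1 at 8.16 times Fbp1 in WT and 3.66 times in UUO urine. Khk was 5.41 times Fbp1 in WT urine and 1.12 times Fbp1 in UUO urine. These ratios within a library do not depend on how the libraries are scaled.

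Miox and Hao2 were the most abundant members in both urines. Miox (ID 252899, chromosome 7, 129994006 to 129996508) encodes myo-inositol oxygenase, which opens the inositol ring and is known to be nearly restricted to the proximal tubule. Its level was 925 FPKM in WT urine and 245 FPKM in UUO urine, a difference of -1.91. Hao2 (ID 84029, chromosome 2, 220254688 to 220278195) encodes a peroxisomal oxidase of long-chain hydroxy acids. In WT urine its FPKM was 1006 and in UUO urine 428, a difference of -1.23. Hao2 ranked 19 among all listed genes in WT urine and 40 in UUO urine, and Miox ranked 22 and 82. Miox was at 0.919 times the level of Hao2 in WT urine and at 0.573 times in UUO urine.

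Arginine and creatine synthesis was represented by Ass1 and Gatm. Ass1 (ID 25698, chromosome 3, 15686766 to 15735190) encodes argininosuccinate synthase, by which the proximal tubule turns citrulline from the blood toward arginine. Its FPKM was 92.3 in WT urine against 35.7 in UUO urine, a difference of -1.35. Gatm (ID 81660, chromosome 3, 121249706 to 121266314) encodes the amidinotransferase that joins arginine and glycine in the first step of creatine synthesis. Its level was 119 FPKM in WT urine and 36.0 FPKM in UUO urine, a difference of -1.70. The 2 genes were at nearly the same level in UUO urine, with a ratio of Gatm to Ass1 of 1.01, against 1.29 in WT urine.

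Ggt1 (ID 116568, chromosome 20, 16209336 to 16231303) encodes the brush border enzyme that cleaves the glutamyl bond of glutathione. It was the lowest member in both urines, at an FPKM of 61.2 in WT urine and 24.3 in UUO urine, a difference of -1.29. Hnf4a (ID 25735, chromosome 3, 166093104 to 166155667) was the member with the second widest difference. In WT urine its FPKM was 158 and in UUO urine 39.6, a difference of -1.97 and a ratio of 3.99. In WT urine it was above Gatm, Ass1, Fbp1 and Ggt1, and in UUO urine it was below Fbp1.

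The order of the members was similar in both urines. Hao2, Miox, Pck1 and Khk held the first to the fourth place in each, and together 85.4% of the summed FPKM of the members in WT and 83.1% in UUO urine. Below them Fbp1 moved from place 8 to place 5. Spearman's rho between the libraries over the 9 genes was 0.90, which is a description across genes and not across samples. Leaving out Khk and Fbp1, the other 7 genes had ratios of WT to UUO between 2.35 and 3.99. With no replicate, the spread that repeated libraries would give is not known, so neighbours in the order such as Gatm and Ass1 in UUO urine are not told apart.

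Against all 9853 counted genes, the differences of the 9 members all lay below the middle. Khk was at percentile 4.35 of the differences, Hnf4a at 12.6, Miox at 13.6, Gatm at 17.6 and Pck1 at 18.1. Ass1 was at 26.4, Ggt1 at 28.1, Hao2 at 29.8 and Fbp1 at 49.9. Fbp1 therefore differed about as much as the median of all counted genes. Genes listed at 0 in WT urine, 1903 of the counted genes, make up much of the upper side of this distribution. Among the 1235 genes with a mean FPKM at or above that of Ggt1, the median difference was -1.26. Hao2 at -1.23 and Fbp1 at -0.51 lay above that value, and Ggt1 at -1.29 and Ass1 at -1.35 close below it.

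**Figure D2:**
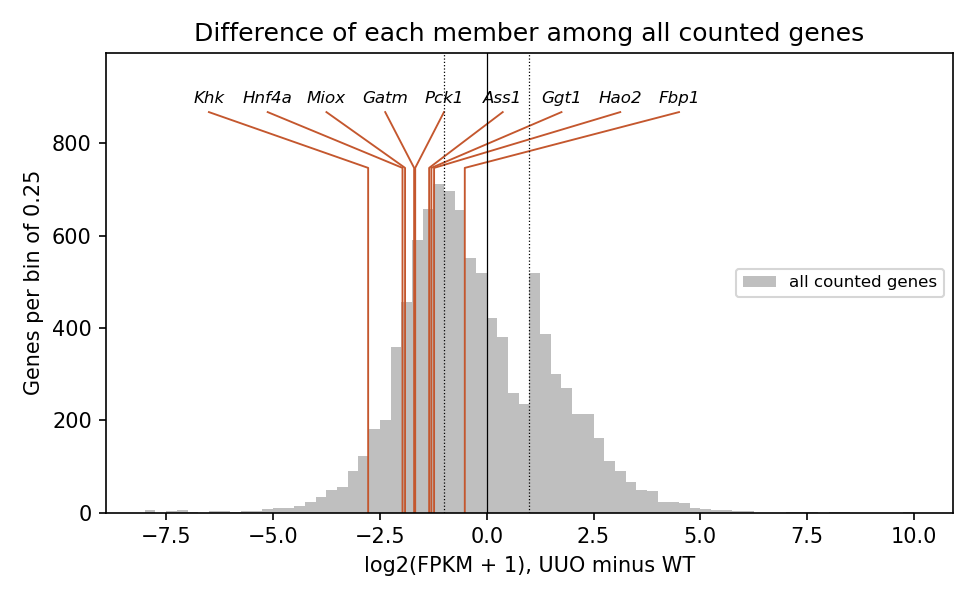
Number of genes per bin of 0.25 of the difference in log2(FPKM + 1), UUO minus WT, over 9853 counted genes, with the 9 members drawn as labelled lines. Values beyond the axis, which reach -13.2 and 11.2, are placed in the end bins. The dotted lines mark 2-fold, and 8 members lie to the left of the lower one, Khk at -2.77 farthest out and Fbp1 at -0.51 inside.

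Levels were also ranked within each library, which needs no scaling between them. In WT urine the members stood between percentile 88.5 (Ggt1) and 99.8 (Hao2) of the counted genes, and in UUO urine between 84.9 (Ggt1) and 99.6 (Hao2). The percentile was lower in UUO urine for 8 of the 9 genes. It was higher for Fbp1, which moved from 91.3 to 94.5. Khk moved from 99.2 to 95.3 and Hnf4a from 96.5 to 91.7. Among all listed genes Khk ranked 80 in WT urine and 467 in UUO urine, and Pck1 ranked 45 and 99.

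The summed FPKM of the members was 3481 in WT urine and 1118 in UUO urine, a ratio of 3.11. As a share of the summed FPKM of all listed genes this was 1.03% in WT urine and 0.412% in UUO urine. Haemoglobin genes held 0.950% of that sum in WT urine and 32.6% in UUO urine. Without these 10 genes the share of the members was 1.04% and 0.611%, a ratio of 1.70.

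The size of each difference moved with the scaling of the libraries. After rescaling to equal sums over all features, 8 members were lower, 5 of them by at least 2-fold, while 20.8% of the counted genes were lower by that limit. After rescaling by the median ratio of the genes above 0 in both libraries, 8 were lower and 2 (Khk at -1.85 and Hnf4a at -1.05) passed the limit, beside 14.9% of the genes. After rescaling to the same 75th percentile of the listed genes above 0 in either library, 3 passed it, beside 16.7% of the genes. Fbp1 was higher in UUO urine under all 3 rescalings, by 0.10, 0.41 and 0.31. These rescalings raise the UUO values by 0.63, 0.93 and 0.84 on the log2 scale. The shares of genes given after rescaling are over all counted genes and not over the abundant ones.

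**Figure D3:**
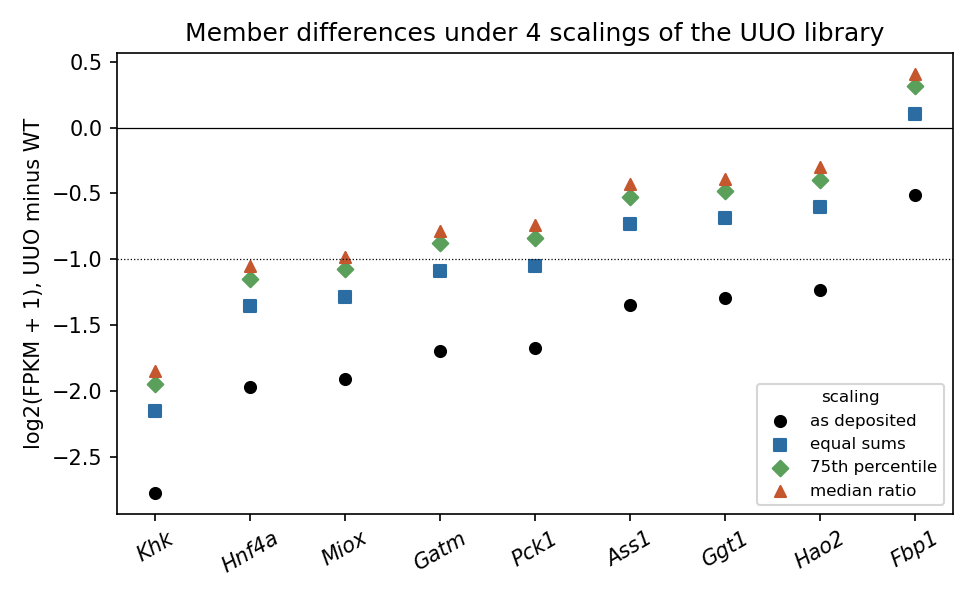
Difference in log2(FPKM + 1), UUO minus WT, of the 9 members with the UUO library as deposited (circles), rescaled to equal sums (squares), to the same 75th percentile (diamonds) and by the median ratio (triangles). Khk stays below -1 (dotted line) under all 4, from -2.77 to -1.85, and Fbp1 crosses 0, from -0.51 to 0.41.

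The reads assigned to the members lay almost wholly on their own entries. Ggt1 was alone at its listed locus, and the other 8 genes each shared theirs with 4 to 8 other entries. The gene itself held at least 91.8% of the FPKM summed over its locus in either library. Summing over the locus moved no difference by more than 0.12. In both libraries the members stood well above the step of a single fragment. From the steps in the FPKM values, 1 fragment per kilobase of effective length was worth 0.473 FPKM in WT urine and 0.408 in UUO urine. Ggt1 then corresponded to 129 fragments per kilobase in WT and 59.6 in UUO urine and Hao2 to 2128 and 1047. PCR copies are not told apart in these numbers, which rest on the fitted totals given with the processing.

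The other genes of the same pathways were taken from 8 lists with 86 genes, none of them a member. Of 76 detected in either library, 47 (61.8%) were lower and 10 (13.2%) higher in UUO urine, with a median difference of -1.24. These shares stand beside 36.5% and 25.7% over all counted genes, and beside 58.7% and 6.72% among the abundant ones. Of each list up to 3 genes, those with the highest mean level, are named below, and genes named as higher were chosen after their values were seen.

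In gluconeogenesis 7 of 12 genes were lower and 1 was higher. Gpi, glucose phosphate isomerase, was at an FPKM of 372 in WT urine and 75.4 in UUO urine, and Mdh2, the mitochondrial malate dehydrogenase, at 337 and 75.7. The gene counted as higher was Fbp2, the muscle form of fructose bisphosphatase, which was listed at 0 in WT and at 10.04 in UUO urine. In fructose and polyol use 5 of 8 genes were lower and 1 was higher. Tkfc, the triokinase that acts further down the fructose pathway, was at 198 in WT urine and 35.0 in UUO urine, and the aldehyde dehydrogenase gene Aldh2 at 266 and 31.7. Akr1b1, the aldose reductase that makes sorbitol, was higher, at 7.80 in WT urine and 33.5 in UUO urine.

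In inositol and glucuronate use 5 of 7 detected genes were lower and 1 was higher. Akr1a1, an aldehyde reductase that takes up the product of Miox, was at 555 in WT urine and 181 in UUO urine, Dcxr, the xylulose reductase, at 134 and 54.4, and Isyna1, the inositol phosphate synthase, at 120 and 18.3. Slc5a3, an inositol carrier, was listed at 0 in WT and at 1.79 in UUO urine. In arginine and creatine synthesis the list was mixed, with 4 of 9 detected genes lower, 1 higher and 4 within 2-fold, and its median of -0.50 was close to the -0.51 of all counted genes. Odc1, ornithine decarboxylase, was at 372 and 135, Ddah1, which breaks down methylated arginine, at 243 and 46.5, and Oat, ornithine aminotransferase, at 162 and 133. The gene counted as higher was Ckmt1, a mitochondrial creatine kinase, at 2.93 in WT urine and 8.52 in UUO urine.

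Amino acid breakdown and ammonia production gave 11 of 15 detected genes lower and 1 higher. Glul, glutamine synthetase, was at 1015 in WT urine and 351 in UUO urine, Aadat, an aminotransferase of tryptophan and lysine breakdown, at 415 and 299, and Got2, the mitochondrial aspartate aminotransferase, at 183 and 78.5. In the list built around peroxisomal oxidases, the class of Hao2, 4 of 7 detected genes were lower and 0 higher. That list also holds enzymes of other kinds, among them Cat and Agxt2. Dao, the D-amino acid oxidase, was at 533 in WT urine and 115 in UUO urine, Cat, catalase, at 385 and 119, and Agxt2, an aminotransferase listed with them, at 126 and 70.5. The other 3 genes of that list, Hao1, Pipox and Uox, were listed at 0 in both urines.

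In the glutathione cycle 6 of 10 detected genes were lower and 2 higher. The subunits of the enzyme that starts glutathione synthesis, Gclc and Gclm, were at 929 and 819 in WT and at 468 and 311 in UUO urine, and the transferase Gstp1 at 668 and 174. Relatives of Ggt1 were the ones counted as higher, Ggt5 and Ggt6, each listed at 0 in WT urine and at 2.71 and 2.84 in UUO urine. Of the transcription factors, 5 of 9 detected genes were lower and 3 higher. Esrra, a nuclear receptor of mitochondrial genes, was at 164 in WT urine and 41.3 in UUO urine, and Maf at 61.3 and 8.66. Cebpa, a factor of liver, fat and myeloid cells, was at 1.01 in WT urine and 53.2 in UUO urine, and the other higher ones were Ppara (5.03 and 12.1) and Ppargc1a (1.83 and 5.14).

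Close relatives of the members did not always stand with them. Fbp2, Ggt5 and Ggt6 were listed at 0 in WT urine and at 10.04, 2.71 and 2.84 in UUO urine. Pck2, the mitochondrial form of Pck1, was at 117 in WT urine and 13.1 in UUO urine, a difference of -3.06 and wider than that of Pck1. Hnf4g, the relative of Hnf4a, was at 13.6 and 5.57, a difference of -1.15. Hao1, the liver form of Hao2, and Ggt7 were listed at 0 in both urines. A listed 0 is not read here as absence of a gene, and whether any 0 is a failed estimate was not tested. Gapdh, a gene that every cell uses, was at an FPKM of 0.406 in WT urine and 0.367 in UUO urine. Both values lie below the limit for detection.

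The label of the genes was checked against markers of the proximal tubule and of other cells. Of the 15 proximal tubule transporter and receptor genes, 14 were detected, 12 of them lower and 1 higher, with a median difference of -2.09 and a summed FPKM of 226 in WT urine and 56.3 in UUO urine. The endocytic receptor gene Lrp2 was at 38.7 in WT urine and 5.995 in UUO urine, and the phosphate carrier gene Slc34a1 at 32.7 and 6.24. Aqp1, which red cells also carry, was at 26.7 and 25.2, and the amino acid carrier gene Slc6a19 was listed at 0 in both. Several members, among them Pck1, Fbp1, Ass1 and Hnf4a, are also known as liver genes, so 8 liver cell markers were read as well. Of these, 6 were listed at 0 in both urines, albumin (Alb), Apoa1, Apob, Fgb, Serpina1 and Cps1. The other two were at low levels, Ttr (transthyretin) at 9.90 in WT urine and 1.56 in UUO urine, a difference of -2.09 in the direction of the members, and Cyp2e1 at 2.23 and 2.13. A 0 in this table does not show that a liver gene was absent.

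Markers of podocytes, of the later nephron and of the urinary tract were not, as lists, lower by 2-fold as the members were. The 5 detected loop and distal tubule genes had a median difference of 0.13, with 0 lower, 2 higher and a summed FPKM of 68.7 in WT urine and 88.3 in UUO urine. The 7 collecting duct genes had a median of 0.50, with 2 lower and 3 higher, and a sum of 232 and 268. One of them, Slc4a1, is also on the red cell list and went from 0.976 to 70.3. Without it the collecting duct median was -0.0044, with 2 lower and 2 higher, and the sum was 231 in WT urine and 198 in UUO urine. The 6 urothelium genes had a median of 0.64, with 1 lower and 2 higher, and a sum of 806 and 1112. The 4 detected podocyte genes had a median of 1.28, with 1 lower and 3 higher. The summed FPKM of the members was 50.6 times that of the loop and distal tubule markers in WT urine and 12.7 times in UUO urine. Relative to the urothelium markers it was 4.32 times in WT and 1.01 times in UUO urine. Relative to the proximal tubule transporters and receptors it was 15.4 times in WT and 19.9 times in UUO urine. From WT to UUO urine that proportion was multiplied by 1.29. The proportion to the loop and distal tubule markers was multiplied by 0.2502, that to urothelium by 0.233 and that to the collecting duct by 0.278, or by 0.375 without Slc4a1.

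Some marker lists held more higher than lower genes, opposite to the members. Tubule injury genes were higher in 5 of 7 detected cases and lower in 0. Of these genes, 3 were listed at 0 in WT urine only. The most abundant of them, the keratin genes Krt8 (578 and 748) and Krt18 (290 and 371), were within 2-fold. Clu (clusterin) was at 42.7 in WT urine and 287 in UUO urine, and the kidney injury marker gene Havcr1 was listed at 0 in WT and at 1.20 in UUO urine. Leukocyte markers were higher in 4 of 5 detected cases, with a sum of 77.5 in WT urine and 105 in UUO urine. Of the 6 genes of that list, 4 were at 0 in WT urine only. The most abundant, Cd74, was at 70.0 in WT urine and 64.8 in UUO urine, within 2-fold. The 4 red cell genes were all higher, with a sum of 2454 in WT urine and 77660 in UUO urine. What part these other cells and the share of reads they took had in the lower levels of the members was not tested.

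**Figure D4:**
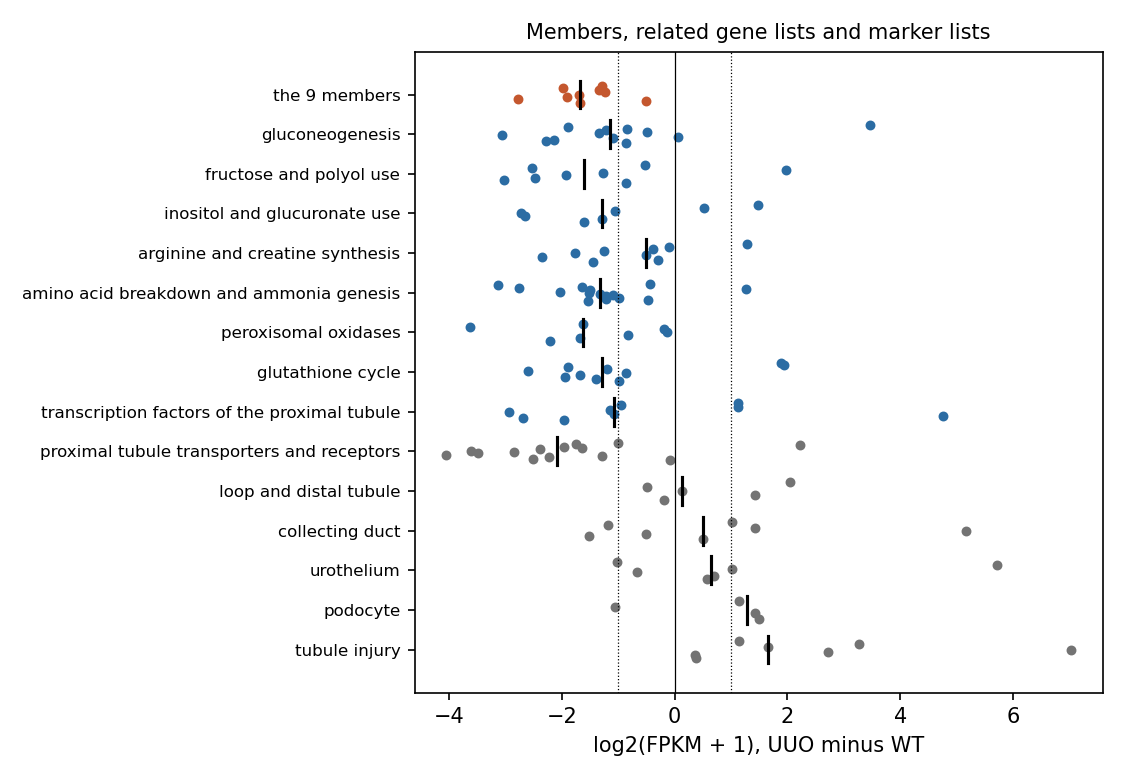
Difference in log2(FPKM + 1), UUO minus WT, of the 9 members (top), of the detected genes of 8 related pathway lists and of 6 marker lists, 1 point per gene, with a bar at the median and dotted lines at 2-fold. Medians run from -0.50 to -1.63 in the pathway lists and from 0.13 to 1.66 in the marker lists other than that of proximal tubule transporters and receptors, which is at -2.09. The collecting duct list holds Slc4a1, also a red cell gene, and its median of 0.50 is -0.0044 without it.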

How the data were processed

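The authors removed ribosomal RNA, made stranded libraries (steps given for kidney RNA), aligned clean read pairs and assembled transcripts. The submitters' processing notes name Bowtie2 2.0.6, TopHat2 2.0.9, Cufflinks 2.1.1 and Cuffdiff 2.1.1 and the rn5 build, to which the listed coordinates are credited. The deposited table holds 1 FPKM value per feature and library, computed by the authors, and the total used for scaling is not given in the sources used here. Its columns of the authors' fold changes, test statistics and p-values were not used. The condition names were assigned to WT and UUO because the urine lists published with the study carry identical values under sham and UUO headings. Symbols came from the RefSeq table of GRCr8, which matched 16329 of 16484 number-only IDs, with no coordinate used except those of the promoters.

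Differences were computed with a pseudocount of 1 in Python 3.11.15 with pandas 2.3.3 and numpy 2.4.6, and the steps were tested on simulated data. Whole-fragment steps were sought in assembled features alone at a locus with a span of 400 to 1200 bp. In the WT library 93.5% of 186 values, and in the UUO library 99.3% of 3530, came within 0.1 of a whole number, at normalising totals of 2116000 and 2448000 fragments. In its text the study gives the reads of each sample only as an order of size, so no interval is given. Members and lists were chosen with earlier results of these data known. The text names the members, the 3 genes of highest mean FPKM per list, and genes said to be chosen later. Results of some listed genes are not reported here by name, although the counts of their lists include them. Of the listed markers, 2 were not analysed here. Alternatives were other pseudocounts, filters, fold limits and scalings, and FPKM summed per locus.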

Additional observations from a re-analysis of the deposited data

How the results depend on the processing

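No paired analysis was possible because only 1 library stands in each group. A difference that kept its sign and its side of 1, and a count, share or sum within 1.5 times, are taken as unchanged. By these limits 91 of 131 recomputed values for 40 results were unchanged, 37 moved and 3 reversed. The reversed ones were all of Fbp1, at 0.10 with equal sums, 0.41 with the median ratio and 0.31 with the 75th percentile.

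With equal sums 5 members were lower by 2-fold, with the median ratio 2, with the 75th percentile 3, and 1 (Khk) at a 4-fold limit. The median over the members was -0.74 with the median ratio and -0.84 with the 75th percentile. Their summed FPKM in UUO urine was 1725, 2136 and 1999.8 with equal sums, the median ratio and the 75th percentile. All 3 rescalings raised the UUO values, since the UUO library was divided by 0.648, 0.523 and 0.559. Over all genes, 370 were higher and 1770 lower with a pseudocount of 10, and 1059 higher and 1185 lower at a 4-fold limit. The median ratio gave 4338 higher and 1587 lower, the 75th percentile 4057 and 1758, and equal sums 2157 lower. Sums over the locus gave 3972 higher, and FPKM of at least 5 gave 1041 higher. For the counts over all genes the cause was not tested. Pseudocounts, filters and sums over the locus left each member's difference on its side of 1. The share of the members without haemoglobin genes and the shares among abundant genes and genes detected in both urines, and the collecting duct values without Slc4a1, were added after the data had been seen.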
